A study of Mus musculus with 4 samples.

Results

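Matricellular proteins are secreted into the matrix without forming its fibres: they bind collagen, proteoglycans, growth factors and cell-surface integrins and alter how cells attach and signal. The group described here comprised 10 genes. The matricellular ones were the tenascin Tnc, periostin (Postn), osteopontin (Spp1), Sparc, the connective tissue growth factor Ccn2 and the thrombospondins Thbs1, Thbs2 and Thbs4. Fibronectin (Fn1) and the large proteoglycan versican (Vcan) were set beside them as components of the matrix itself. Fibronectin and versican form the provisional matrix that is laid down early after injury, and several of the others are made transiently in wounds and regenerating muscle. In dystrophic muscle they are known as components of the matrix that accompanies repeated rounds of necrosis and repair.

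Members were all probe sets whose only gene symbol in the platform annotation was one of these names. This gave 23 probe sets for 9 of the 10 genes, out of 18193 genes with such a probe set. No probe set carried the symbol Spp1 alone, so osteopontin has no value here. A further probe set shared by Thbs1 and Pald1 was left out.

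RNA of the tibialis anterior, a fast-twitch muscle at the front of the shin, was hybridised to Affymetrix mouse expression arrays, 1 for each of 4 groups. The groups were mdx mice at 1 month and at 3 months of age and mdx/MMP-2-/- mice at the same ages, all labelled C57BL/6J. All groups carry the mdx mutation of dystrophin, so the mdx arrays are the controls for loss of matrix metalloproteinase 2 (MMP-2) and no array of muscle with dystrophin was analysed here. The labels do not say how many animals stand behind an array, and the absence of replicates means that no difference between arrays has a replicate error. "Higher" and "lower" therefore describe these arrays only, and in bulk muscle fewer cells of a type and less RNA per cell cannot be told apart.

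Signals are given after quantile scaling of the 4 arrays, and signals below a floor of 17.4, the 50th percentile, were treated as equal to it. In each gene the probe set with the highest mean represents the gene, and 12801 genes exceeded the floor in at least 1 array. Mmp2 had signals of 985 and 805 in the mdx arrays at 1 and 3 months, and of 24.7 and 40.9 in the mdx/MMP-2-/- arrays, the direction that the genotype labels give. Summed signals of 12 skeletal muscle fibre markers lay between 154799 and 156852 in the 4 arrays. Quantile scaling gives all arrays the same set of values, and these markers are among the brightest. Their sum therefore had little room to differ, and it is no check of equal muscle content. For Actb, the ratio of 3' to 5' probe signals, which reflects RNA integrity, was 1.19 and 1.05 at 1 month (mdx and mdx/MMP-2-/-) and 2.36 and 2.09 at 3 months, and for Gapdh it was 0.88 and 0.85 at 1 month and 0.94 in both arrays at 3 months. The Actb ratio differed with age, and its part in the age differences below was not tested.

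All 9 measured members had their lowest signal of the 4 arrays in mdx at 3 months. Over all genes this array held the lowest signal for 23.2%. As a consequence every member was both higher in mdx/MMP-2-/- than in mdx at 3 months and lower at 3 months than at 1 month in mdx; these comparisons share the mdx array at 3 months and are not independent of each other. The highest signal lay in the mdx/MMP-2-/- array at 1 month for Fn1, Postn, Thbs1 and Thbs4, in the mdx array at 1 month for Sparc, Tnc and Thbs2, and in the mdx/MMP-2-/- array at 3 months for Vcan and Ccn2.

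**Figure D1:**
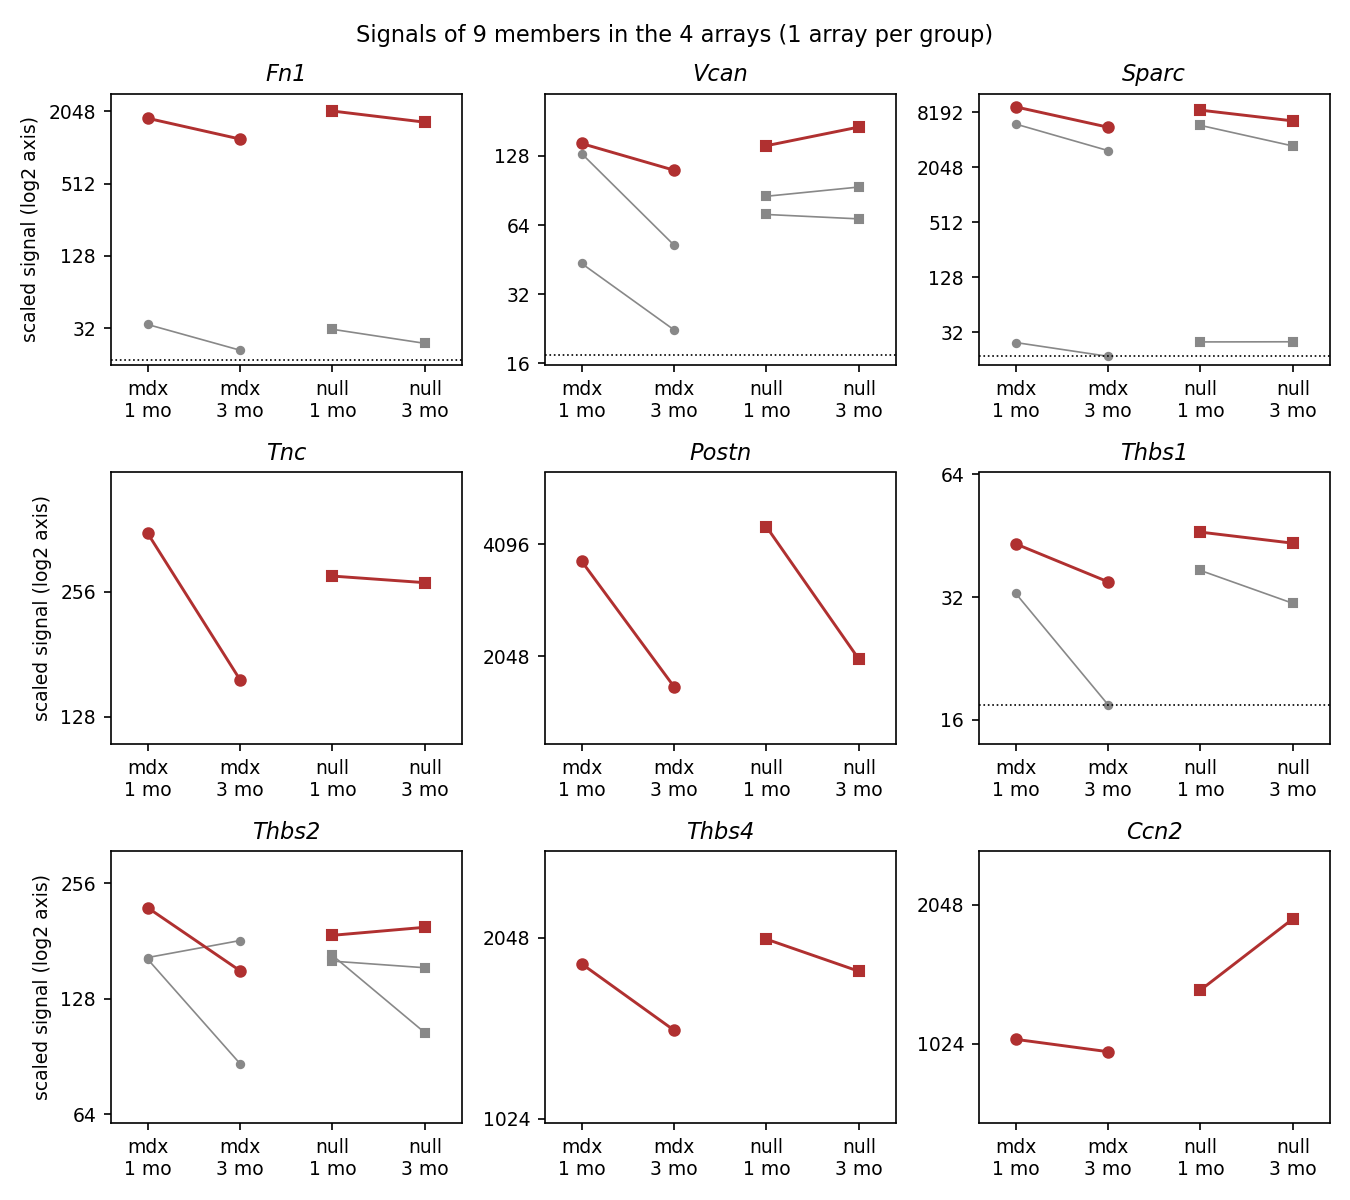
Scaled signal (log2 axis, ranges differ between panels) of 9 members in the 4 arrays, with red for the probe set that represents the gene, grey for its other probe sets above the floor, and a dotted line at the floor of 17.4; circles are mdx, squares mdx/MMP-2-/- ("null"), and lines join the ages of a genotype. Every red series is lowest in mdx at 3 months, and 1 grey series of Thbs2 is highest there.

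Postn and Tnc were the 2 members whose signals spanned more than 2-fold over the 4 arrays. The bases before their annotated starts are printed as a description, and no link between promoter and pattern was tested. They are from RefSeq (GRCm38.p6), 250 bases each, 5′ to 3′ on the gene's strand. Capitals mark the letters of a TATA box (TATAAA), which positions transcription starts in some promoters. The search matched letters only, at any distance from the start, and whether a match works as a TATA box was not tested. Tnc has a further annotated start 79 bases downstream, for which the same letters begin 205 bases before the start. Postn has starts at the gene's 5′ end and further inside the gene.
Tnc, chr4:64047016-64047265, minus strand: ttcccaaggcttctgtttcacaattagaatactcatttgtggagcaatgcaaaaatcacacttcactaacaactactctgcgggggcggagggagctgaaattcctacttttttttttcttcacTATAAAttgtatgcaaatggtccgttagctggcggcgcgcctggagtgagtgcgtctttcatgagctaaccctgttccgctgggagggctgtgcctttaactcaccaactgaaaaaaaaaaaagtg
Postn at the gene's 5′ end, chr3:54359017-54359266, plus strand: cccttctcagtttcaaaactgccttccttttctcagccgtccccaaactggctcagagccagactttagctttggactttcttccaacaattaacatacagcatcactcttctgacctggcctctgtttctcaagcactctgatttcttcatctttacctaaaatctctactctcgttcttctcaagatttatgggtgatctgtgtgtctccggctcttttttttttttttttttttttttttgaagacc
Postn at the inner start, chr3:54360857-54361106, plus strand: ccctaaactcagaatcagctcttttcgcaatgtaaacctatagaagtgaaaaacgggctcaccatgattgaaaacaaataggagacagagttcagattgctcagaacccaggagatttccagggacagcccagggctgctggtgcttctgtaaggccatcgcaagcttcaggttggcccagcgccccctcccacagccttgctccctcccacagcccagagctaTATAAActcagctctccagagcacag

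In the Tnc window the letters TATAAA began 126 bases before the start, and in the window of the inner Postn start they began 26 bases before it. The window at the 5′ end of Postn did not hold them, and that of Thbs2 held them on the opposite strand. Of the 32851 promoters in the table, 12.4% held these letters on either strand within 250 bases. Windows at the gene's start were found for 5 measured members (Sparc, Tnc, Postn, Thbs2 and Thbs4), and at another start for Vcan. An AP-1 site (TGANTCA, found in 6.75% of all promoters) and a CArG box (1.47%) were in none of these windows. The M-CAT element bound by TEAD factors (CATTCC, 12.6% of promoters) occurred in that of Thbs4 alone, as overlapping copies at 197 and 192 bases before the start.

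The comparison of genotypes at 3 months asked how muscle without MMP-2 differs at the later age. The 9 members were higher in mdx/MMP-2-/- in 9 of 9 cases, beside 47.6% of all genes. Their median log2 difference was 0.38 (range 0.23 to 0.96) against a median of 0.0 for all genes. None reached 2-fold, which 1.18% of all genes did in this direction, and 3 of 9 reached 1.5-fold, beside 6.12% of all genes.

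Ccn2, a secreted target of TGF-beta that promotes matrix synthesis, had signals of 1047 and 984 in mdx at 1 and 3 months and of 1338 and 1909 in mdx/MMP-2-/-. Both mdx arrays lay below both mdx/MMP-2-/- arrays. At 3 months the signal was 1.94-fold higher in mdx/MMP-2-/-, a difference larger than that of 98.6% of all genes, and at 1 month it was 1.28-fold higher. With age Ccn2 was 1.43-fold higher in mdx/MMP-2-/- and 1.06-fold lower in mdx.

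Tnc, a hexameric glycoprotein made at sites of injury, had signals of 354 and 157 in mdx at 1 and 3 months and of 279 and 269 in mdx/MMP-2-/-. The mdx arrays hold both the highest and the lowest value, and the mdx/MMP-2-/- arrays lie between them. Tnc was 1.71-fold higher in mdx/MMP-2-/- at 3 months and 1.27-fold lower at 1 month. Its other probe set was at the floor in all arrays.

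Vcan, the hyaluronan-binding proteoglycan of provisional matrix, had signals of 145 and 111 in mdx at 1 and 3 months and of 142 and 171 in mdx/MMP-2-/-. Its probe sets were alike in direction at 3 months and unlike at 1 month. At 3 months the mdx/MMP-2-/- array was 1.54-fold higher by this probe set, 1.79-fold by 1421694_a_at (93.7 against 52.3) and 3.04-fold by 1427257_at (68.1 against 22.4). At 1 month the same 3 probe sets gave 142 against 145, 85.4 against 131 and 71.1 against 43.5, so the direction there depended on the probe set. The other 5 of its 8 probe sets were at the floor in all arrays.

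Fibronectin (Fn1) links cells to matrix through integrins. Its signals were 1793 and 1203 in mdx at 1 and 3 months and 2060 and 1663 in mdx/MMP-2-/-, which puts mdx/MMP-2-/- above mdx at each age, by 1.15-fold and 1.38-fold. The other Fn1 probe set was dim, with 34.3 and 20.9 in mdx and 31.3 and 23.9 in mdx/MMP-2-/-. By that probe set mdx/MMP-2-/- was lower at 1 month and higher at 3 months.

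The thrombospondins are trimeric or pentameric glycoproteins. Thbs4, found at muscle and tendon attachments, had signals of 1855 and 1438 in mdx at 1 and 3 months and of 2039 and 1803 in mdx/MMP-2-/-. It was 1.25-fold higher in mdx/MMP-2-/- at 3 months and 1.1-fold higher at 1 month, where median scaling turned the direction. Thbs1, which can activate latent TGF-beta, was dim, with signals of 43.2 and 34.9 in mdx and of 46.2 and 43.4 in mdx/MMP-2-/-. The genotypes differed 1.24-fold at 3 months by this probe set, and by at least 1.77-fold by the other, which was below the floor in mdx at 3 months and at 30.9 in mdx/MMP-2-/-.

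Thbs2, which restrains angiogenesis and takes part in collagen fibril assembly, was the member whose bright probe sets differed in direction at 3 months. The probe set that represents it, 1447862_x_at, of a type open to cross-hybridisation, had signals of 221 and 151 in mdx at 1 and 3 months and of 187 and 196 in mdx/MMP-2-/-. By 1422571_at the signals were 162 and 86.8 in mdx and 166 and 104 in mdx/MMP-2-/-. By 1450663_at they were 164 and 181 in mdx and 160 and 154 in mdx/MMP-2-/-, so that mdx at 3 months was highest in place of lowest. Over the 15 member probe sets above the floor in all 4 arrays, this Thbs2 probe set was the 1 that lay lower in mdx/MMP-2-/- at 3 months. The other 14 lay higher, beside 47.6% of all genes counted by gene. Several of these probe sets belong to the same gene, so they are not independent of each other.

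Sparc and Postn, both collagen-binding proteins, differed least between genotypes at 3 months. Sparc had signals of 9388 and 5621 in mdx at 1 and 3 months and of 8640 and 6588 in mdx/MMP-2-/-, a 1.17-fold difference at 3 months. Another bright Sparc probe set gave 3118 in mdx and 3504 in mdx/MMP-2-/- at 3 months, and a dim one was below the floor in mdx and at 25.2 in mdx/MMP-2-/-. Postn had signals of 3690 and 1694 in mdx at 1 and 3 months and of 4569 and 2010 in mdx/MMP-2-/-, which puts mdx/MMP-2-/- 1.24-fold higher at 1 month and 1.19-fold higher at 3 months.

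**Figure D2:**
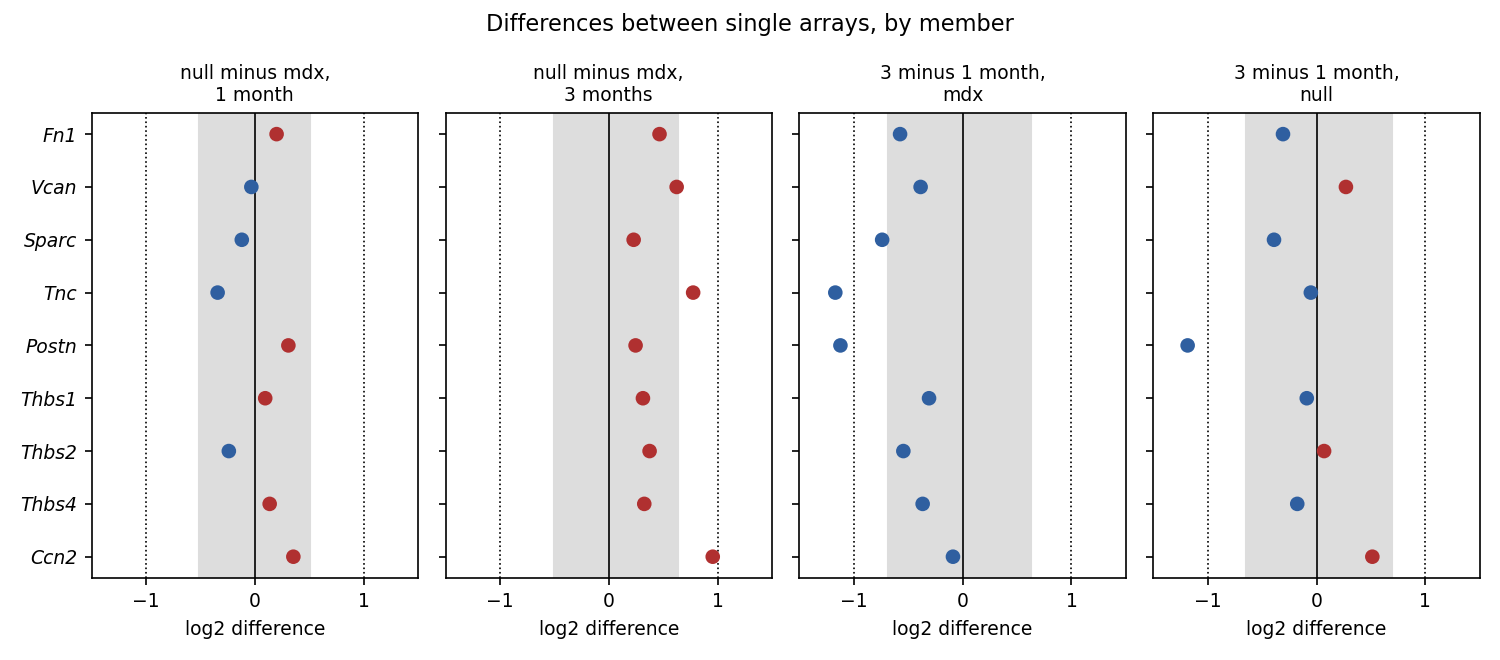
Log2 differences of 9 members between single arrays in 4 comparisons; points are members (red above 0, blue below), grey bands span the 5th to 95th percentile of all 12801 genes, and dotted lines mark 2-fold. All 9 points lie above 0 for genotype at 3 months and below 0 for age in mdx; outside the bands lie Ccn2 and Tnc for genotype at 3 months, Sparc, Tnc and Postn for age in mdx, and Postn for age in the null.

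At 1 month the genotypes differed less in these genes. Of 9 members 5 were higher and 4 lower in mdx/MMP-2-/-, beside 46.8% of all genes higher and 48.3% lower. The median log2 difference was 0.1, with a range of -0.34 (Tnc) to 0.35 (Ccn2). No member reached 1.5-fold or 2-fold in either direction; of all genes, 0.57% reached 2-fold upwards and 0.578% downwards.

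The genotype difference was larger at 3 months than at 1 month for 8 of 9 members, beside 50.5% of all genes, and Postn was the exception (a difference of -0.06 on the log2 scale, above 0 with median or no scaling). For Tnc the difference between ages was 1.12, or 2.17-fold, and Tnc was the 1 member past 2-fold, beside 2.91% of all genes. It was 0.66 for Vcan, 0.61 for Thbs2 and 0.60 for Ccn2. By the probe sets that represent the genes, the genotype difference had opposite directions at 1 and at 3 months for Tnc, Vcan, Thbs2 and Sparc. For Vcan the value at 1 month was near 0, and above it without scaling or with the mean of probe sets. By 1427257_at Vcan was higher in mdx/MMP-2-/- at both ages, as was Thbs2 by 1422571_at. Thbs2 was lower in mdx/MMP-2-/- at both ages without probe sets ending in _x_at or _s_at, and its difference between ages was then -0.2.

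**Figure D3:**
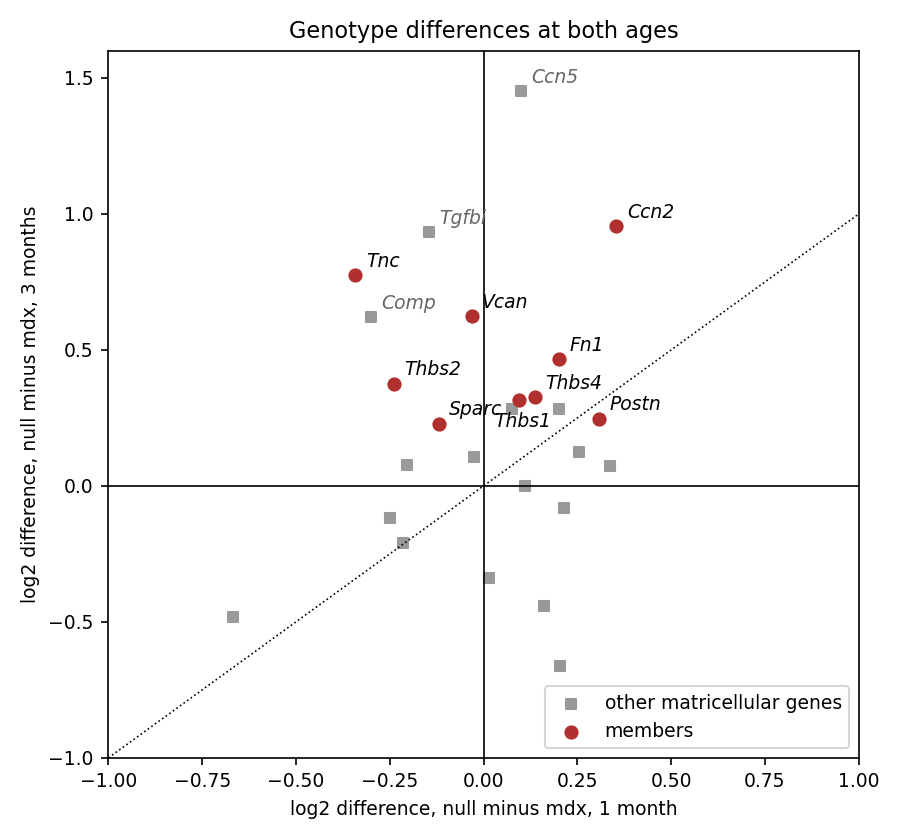
Log2 difference between mdx/MMP-2-/- ("null") and mdx at 1 month (x axis) and at 3 months (y axis) for 9 members (red circles) and 17 other matricellular genes (grey squares); the dotted line marks equal differences at both ages. Members lie from -0.34 to 0.35 on the x axis and from 0.23 to 0.96 on the y axis, while the other matricellular genes lie on both sides of 0 at 3 months.

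The comparison of ages in mdx asked how muscle that retains MMP-2 differs between 1 and 3 months of age. All 9 members were lower at 3 months, beside 47.7% of all genes, with a median log2 difference of -0.55 (range -1.17 to -0.09). Tnc was 2.25-fold and Postn 2.18-fold lower, and these 2 were past 2-fold by the probe sets that represent the genes, beside 1.55% of all genes. Sparc was 1.67-fold, Fn1 1.49-fold, Thbs2 1.46-fold, Vcan 1.31-fold, Thbs4 1.29-fold, Thbs1 1.24-fold and Ccn2 1.06-fold lower. Of these, Ccn2 was higher under median scaling and Thbs2 without probe sets ending in _x_at or _s_at. By other probe sets Vcan was 2.50-fold (1421694_a_at) and 1.95-fold (1427257_at) lower, and Fn1 1.64-fold. Sparc was 1.95-fold lower by 1448392_at and at least 1.42-fold by 1458204_at, and Thbs1 at least 1.88-fold by 1450377_at. Thbs2 was 1.87-fold lower by 1422571_at and 1.11-fold higher by 1450663_at.

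In mdx/MMP-2-/- the members were not alike with age. Postn was 2.27-fold lower at 3 months, close to its 2.18-fold in mdx, and was the 1 member past 2-fold, beside 1.22% of all genes. Sparc was 1.31-fold and Fn1 1.24-fold lower, Thbs4, Thbs1 and Tnc were lower by 1.13-fold or less, and Thbs2, Vcan and Ccn2 were higher by 1.05-fold, 1.21-fold and 1.43-fold. That is 6 of 9 lower, beside 45.7% of all genes, with a median of -0.09. Thbs2 was higher only by the probe set that represents it, and was 1.59-fold lower by 1422571_at and 1.04-fold lower by 1450663_at. Vcan was 1.10-fold higher by 1421694_a_at and 1.05-fold lower by 1427257_at. With the mean of probe sets, or without those ending in _x_at or _s_at, 7 of 9 were lower (47.4% and 47.7% of all genes). Without scaling, where the median of all genes stood at 0.26, 2 of 9 were lower, since Fn1, Thbs4, Thbs1 and Tnc lay above 0; under median scaling Fn1, Thbs4 and Tnc did.

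Genotype and age were also fitted as additive effects over the 4 arrays in limma, which left 1 residual degree of freedom a gene. It called 0 of 9 members and 0 of 12801 genes for either effect after Benjamini-Hochberg adjustment. At an unadjusted p under 0.05 it held 3 members (Postn, Sparc and Fn1) and 1756 genes (13.7%) for age, and 1 member (Ccn2) and 560 genes (4.37%) for genotype. Postn had an age effect of -1.15 ± 0.15 (SE, log2) with an adjusted p of 0.288 in limma, and Ccn2 a genotype effect of 0.66 ± 0.21 with an adjusted p of 0.982. With a variance prior that follows the signal, Postn was called for age (adjusted p = 0.0053 in limma), as 1 of 130 genes, and 1 gene was called for genotype. The residual of this model is the difference between the genotype differences. A gene whose genotype difference changes between the ages, such as Tnc, therefore gets a large error (0.3 on the log2 scale).

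Genes with like profiles were sought among 245 named genes with bright, variable signals, by the root mean square distance between log2 profiles centred over the 4 arrays. Nearest to Tnc were Ago1 (0.04), Ddah2 (0.07) and Sec61a1 (0.09). Ago1 is an Argonaute protein of small RNA silencing, and its signals were 125 and 57.5 in mdx at 1 and 3 months and 107 and 102 in mdx/MMP-2-/-. Nearest to Postn were Ltbp4, a binding protein of latent TGF-beta (0.06), the integrin subunit Itga4 (0.08) and Mymk, which drives fusion of myoblasts (0.09). Over 4 arrays such likeness is a description and no more.

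Of 22 other matricellular genes listed for comparison, 17 were above the floor; Tnr, Tnn, Spock1, Ccn6 and Hapln1 were not. At 3 months 9 were higher and 7 lower in mdx/MMP-2-/-, with a median log2 difference of 0.07 and 1 past 2-fold. That gene was Ccn5, a relative of Ccn2, at 89.1 against 32.6 (2.74-fold). Tgfbi, a TGF-beta-induced matrix protein chosen after its values were seen, was 1.91-fold higher (1314 against 688). With age in mdx 12 of 17 were lower and 4 higher, with a median of -0.19 and none past 2-fold.

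Receptors for these proteins, integrin subunits, syndecans, Cd44, Cd36, Cd47 and others, were above the floor for 21 of 21 listed genes. At 3 months 16 were higher and 5 lower in mdx/MMP-2-/-, with a median of 0.14 and none past 2-fold. Cd44, which binds osteopontin and hyaluronan and was chosen after its values were seen, was at 1154 against 662. Itga4, whose product pairs with Itgb1 to bind fibronectin, was 1.9-fold lower at 3 months in mdx and 2.13-fold lower in mdx/MMP-2-/-, and was the 1 receptor gene past 2-fold in these 4 differences between arrays.

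Of 18 TGF-beta and mechanical signalling genes, 17 were measured, and at 3 months 12 were higher and 5 lower in mdx/MMP-2-/- (median 0.16). Ltbp2, which binds fibrillin, was the 1 past 2-fold there, at 52.7 against 24.0. At 1 month it lay the opposite way, at 23.6 in mdx/MMP-2-/- against 47.1 in mdx, and its signals were dim. Ankrd1, a stress-responsive target of YAP, had signals of 799 and 1438 in mdx at 1 and 3 months and of 853 and 2662 in mdx/MMP-2-/-. Of 16 partners of versican and hyaluronan 15 were measured and 11 were above the floor, of which 6 were higher and 2 lower at 3 months (median 0.12), and Adamts4, a protease that cleaves versican, was at least 2.87-fold higher (50.1 against a signal below the floor).

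Several lists of cell type markers differed the same way as the members, and others did not. All 16 markers of macrophages and monocytes exceeded mdx in the mdx/MMP-2-/- array at 3 months (median 0.58), with summed signals of 15001 against 10118, and 13097 and 11924 in mdx and mdx/MMP-2-/- at 1 month. All 7 neutrophil markers above the floor were higher at 3 months too (summed signals of 787 against 157 over 8 genes, Cxcr2 being at the floor in all arrays), as were 13 of 14 fibroblast markers (50692 against 46363). Fibroblast markers were lower with age in mdx in 12 of 14 cases, and regenerating fibre and satellite cell markers in 12 of 12, with sums of 7548 and 3525. Tendon markers, relevant to Thbs4 and Tnc, were lower with age in mdx in 8 of 10 cases (sums of 6754 and 5094). With age in mdx/MMP-2-/- 9 of 14 fibroblast, 9 of 12 regenerating fibre and 8 of 10 tendon markers were lower (medians -0.20, -0.57 and -0.40). The members' median there was -0.09. Cartilage and bone markers were summed to 919 in mdx at 1 month and to between 248 and 395 in the other arrays, with 2 of 12 (Matn1 and Col10a1) at the floor in all arrays. Endothelial markers lay the opposite way at 3 months, with 8 of 10 lower in mdx/MMP-2-/- (median -0.22), and were lower with age in 9 of 10 cases in mdx and 10 of 10 in mdx/MMP-2-/-. The part of these cells in the members' differences was not tested.

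**Figure D4:**
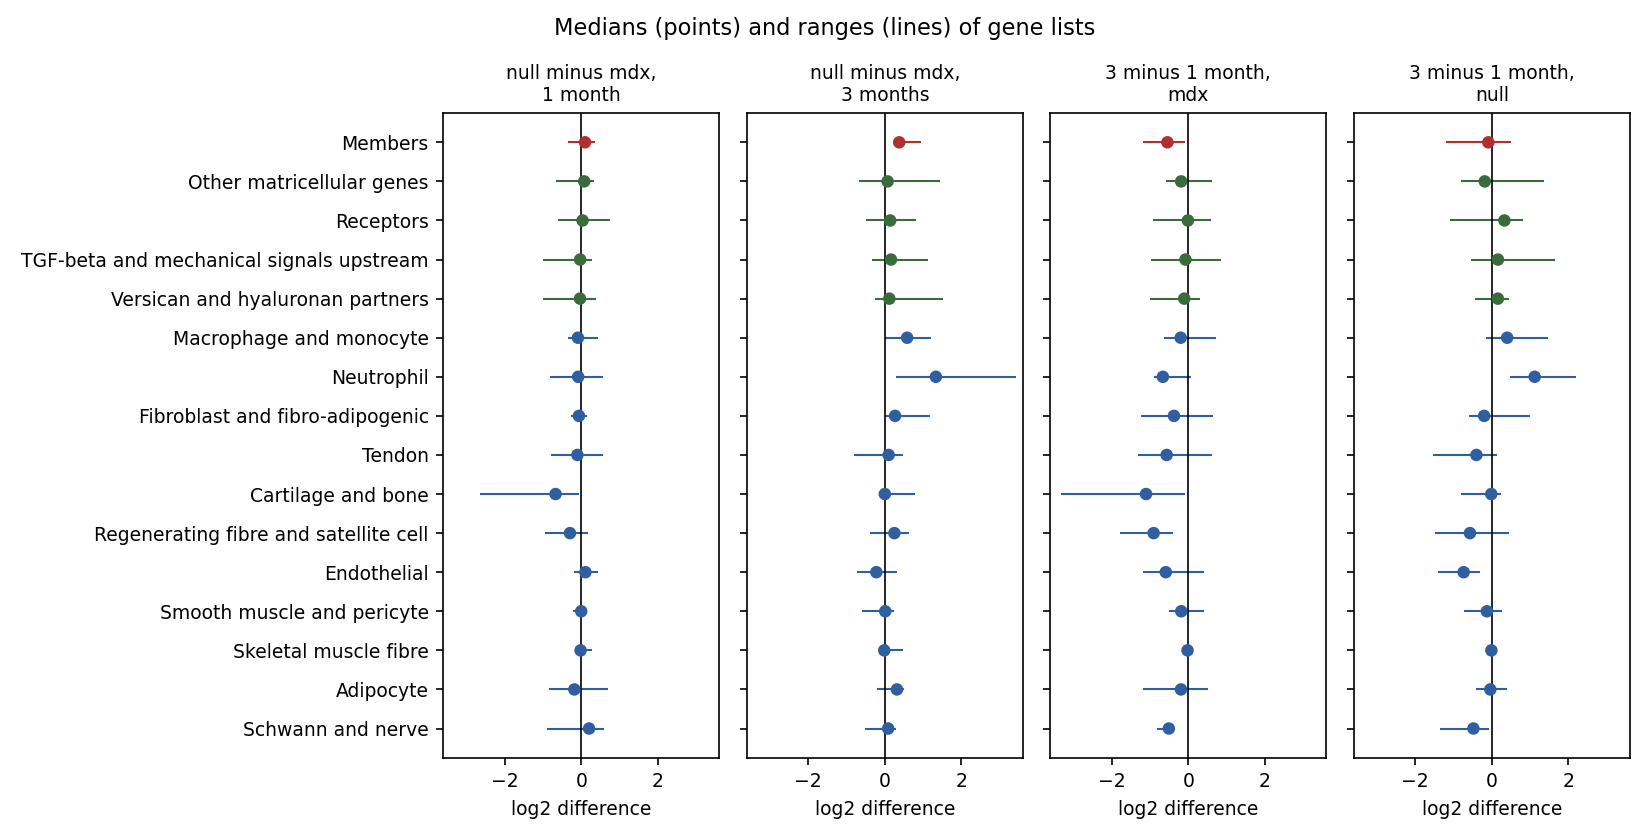
Median (points) and range (lines) of log2 differences in 4 comparisons for the 9 members (red), 4 lists of related genes (green) and 11 lists of cell type markers (blue), where "null" is mdx/MMP-2-/-. At 3 months the medians of the members (0.38) and of macrophage markers (0.58) lie above 0, and that of skeletal muscle fibre markers (-0.02) near it. Quantile scaling leaves genes as bright as the fibre markers little room to differ.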

How the data were processed

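Total RNA of tibialis anterior was labelled with biotin and hybridised to 4 arrays, per the labels. The authors deposited a linear signal intensity for each probe set, computed with MAS5 in Expression Console according to the submitters' processing notes. The sources used here give neither tool versions nor scaling targets. The array columns were not at a common level, and their 2% trimmed means were 0.99 to 1.34 times that of mdx at 1 month. Of 45037 probe sets that were not controls, 34945 carried 1 gene symbol, 932 several and 9160 none here.

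Arrays were quantile normalized in limma 3.58.1 (R 4.3.3), raised to the floor and put on the log2 scale. The 4 differences between arrays have no test. The additive model used limma (lmFit, eBayes) on 12801 genes, and the pipeline was tested on simulated data. Tables and promoter searches (both strands) used Python 3.11.15 and pandas 2.3.3. All members and Mmp2 are named. Of each list of related genes, up to 4 past 2-fold with a signal of at least 85.4 are named. Genes said to be chosen later or that make up a small count are named besides. Cell type markers are given as counts, medians and sums, and markers past 2-fold, S100a9 and Col2a1 among them, are not named there. Members and lists were chosen with earlier results of these data known. Alternatives were median, cyclic loess and no scaling, a floor at the 40th or at the 60th percentile, a pseudocount of 4.36 without floor, the mean of a gene's probe sets, leaving out _x_at and _s_at probe sets, 1.5-fold and 3-fold thresholds, a variance prior that follows signal, and unadjusted p.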

Additional observations from a re-analysis of the deposited data

Results flagged for a closer look

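For 4 members the genotype difference pointed one way at 1 month and the opposite way at 3 months by the probe set that represents the gene. Each value is from single arrays, and none of these differences was tested. Tnc was lower in mdx/MMP-2-/- at 1 month (-0.34, log2) and higher at 3 months (0.78), a gap of 1.12. Vcan had -0.03 and 0.62 (gap 0.66), Thbs2 -0.24 and 0.38 (gap 0.61) and Sparc -0.12 and 0.23 (gap 0.35). By 1421694_a_at Vcan also turned (-0.62 and 0.84), but by 1427257_at it was higher at both ages (0.71 and 1.61). Thbs2 kept 1 direction by its other probe sets (0.03 and 0.27 by 1422571_at, -0.03 and -0.24 by 1450663_at). Sparc also turned by 1448392_at (-0.05 and 0.17), but not by the dim 1458204_at (0.02 and at least 0.53). Seen as age differences by the probe set that represents it, Vcan was lower in mdx (-0.39) and higher in mdx/MMP-2-/- (0.27). By 1421694_a_at Vcan did likewise (-1.32 and 0.13), and by 1427257_at it was lower in both genotypes (-0.96 and -0.06). Thbs2 was lower with age in mdx and higher in mdx/MMP-2-/- (-0.55 and 0.07), but only by the probe set that represents it. By 1422571_at Thbs2 was lower with age in both genotypes (-0.90 and -0.67). By 1450663_at it was higher in mdx (0.15) and lower in mdx/MMP-2-/- (-0.06). Ccn2 was also lower with age in mdx and higher in mdx/MMP-2-/- (-0.09 and 0.51, gap 0.60), although its difference in mdx was 0.06 under median scaling. For Thbs2 the gap was -0.2 without probe sets ending in _x_at.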

How the results depend on the processing

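No member at or past 2-fold in any of these comparisons was turned in direction by an alternative. With no scaling, the members' median at 3 months was 0.85, beside 0.41 for all genes, with 3 members past 2-fold and all 9 above the median of all genes; 855 genes were then at least 2-fold higher and 13 lower, against 151 and 54 after scaling. In mdx/MMP-2-/- with age, 2 of 9 members were then lower, beside 24.6% of all genes, and 0 past 2-fold. In the difference of differences 2 were past 2-fold, as were 941 of 12872 genes. Under median scaling 3 of 9 were lower with age in mdx/MMP-2-/-, beside 28.3% of all genes, and 0 were past 2-fold. With the mean of probe sets, which includes those at the floor, 1 member was past 2-fold with age in mdx and 0 in the difference of differences. With that mean, or without _x_at and _s_at probe sets, 7 of 9 were lower with age in mdx/MMP-2-/- (47.4% and 47.7% of all genes). A 3-fold threshold left 0 members in any of these. At 1.5-fold there were 3 for genotype at 3 months, beside 6.12% of all genes. With age 3 were lower by 1.5-fold in mdx and 1 in mdx/MMP-2-/- (5th percentiles of all genes -0.69 and -0.65, log2). In the difference of differences 4 reached 1.5-fold, a size below the 95th percentile of all genes (0.82, log2). The additive fit held 1 member for genotype and 3 for age at unadjusted p, and 1 for age with a prior that follows signal. Mdx at 3 months was lowest for 8 of 9 members under median scaling (21.1% of all genes) and without _x_at and _s_at probe sets (23.7%), and for 9 otherwise, also without scaling, where it was lowest for 42.7% of all genes. Without the latter probe sets Thbs2 was lower in mdx/MMP-2-/- at 3 months (-0.24) and higher with age in mdx (0.15). No paired analysis was possible because each group held 1 array. The single array per group limits every value.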
